A study of Rattus norvegicus with 15 samples.

Results

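The Notch pathway genes described here were 10 genes chosen by symbol as named components of the pathway, namely the receptors Notch1, Notch2 and Notch3, the ligands Jag1, Jag2 and Dll1, the transcription factor Rbpj and the targets Hes1, Hey1 and Heyl. A row was found for 8 of the 10 among the 11574 genes of the count table, and Jag2 and Hey1 were not analysed here. RNA-seq counts were compared in 15 cultures of H9c2, a rat myoblast line that was established from embryonic heart. The 5 groups, each of 3 cultures, were T0, harvested 24 h after seeding, T7-RA and T14-RA, kept for 7 or 14 days in low serum (1% fetal bovine serum, reduced from 10%), and T7+RA and T14+RA, kept in the same low serum with 1 µM all-trans retinoic acid (RA) added daily. RA was dissolved in DMSO, and the sources used here do not say whether the cultures without RA received DMSO. The study lowered the serum after 24 h of attachment, and no later culture was kept in 10% serum. Comparisons with T0 therefore join time and the change of serum, which cannot be told apart. Cultures with and without RA share day and serum, but an effect of DMSO cannot be told apart from that of RA. The deposited annotation lists the 8 genes as protein-coding and gives their identifiers and cytogenetic bands as ENSRNOG00000019322 at 3p13 (Notch1), ENSRNOG00000018835 at 2q34 (Notch2), ENSRNOG00000004346 at 7q11 (Notch3), ENSRNOG00000007443 at 3q36 (Jag1), ENSRNOG00000059984 at 1q12 (Dll1), ENSRNOG00000046327 at 14q11 (Rbpj), ENSRNOG00000001720 at 11q22 (Hes1) and ENSRNOG00000015318 at 5q36 (Heyl).

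Notch receptors are transmembrane proteins that bind Jagged or Delta ligands on neighbouring cells. Binding leads to cleavage of the receptor, and the released intracellular domain enters the nucleus, where it joins RBPJ and co-activators to switch on genes such as those of the Hes and Hey repressors. In skeletal muscle precursors, Notch signalling is best known for holding cells in an undifferentiated state, and in the developing heart it takes part in valve and trabecula formation. The protein and its cleavage were not measured, so the values below are transcript levels only. In bulk cultures, fewer cells that express a gene and less RNA per cell cannot be told apart.

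The promoters of the genes that moved most with RA (Notch3, Jag1 and Notch1) are shown beside that of Hes1, which did not pass the test. A link between sequence and the change with RA was not tested. Each is the 250 bases before the RefSeq start on rat build GRCr8, 5′ to 3′ on the gene's strand, which was minus for all 4. They lie at chr7:11834586-11834835 (Notch3), chr3:144894884-144895133 (Jag1), chr3:29721614-29721863 (Notch1) and chr11:84213046-84213295 (Hes1). Capitals mark matches on either strand to TGGGAA, the core of the RBPJ motif, to AGGTCA, a half-site of retinoid receptors, or to GGGCGG, a GC box.
Notch3: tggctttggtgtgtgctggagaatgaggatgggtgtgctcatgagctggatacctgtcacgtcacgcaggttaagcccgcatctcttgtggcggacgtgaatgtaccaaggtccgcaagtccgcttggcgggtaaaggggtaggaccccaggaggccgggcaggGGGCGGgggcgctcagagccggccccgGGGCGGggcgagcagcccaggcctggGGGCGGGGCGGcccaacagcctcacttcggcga
Jag1: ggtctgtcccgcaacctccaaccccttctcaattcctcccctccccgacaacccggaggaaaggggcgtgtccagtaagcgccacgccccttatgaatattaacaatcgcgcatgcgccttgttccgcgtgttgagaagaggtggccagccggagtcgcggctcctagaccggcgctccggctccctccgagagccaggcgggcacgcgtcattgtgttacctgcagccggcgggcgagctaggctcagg
Notch1: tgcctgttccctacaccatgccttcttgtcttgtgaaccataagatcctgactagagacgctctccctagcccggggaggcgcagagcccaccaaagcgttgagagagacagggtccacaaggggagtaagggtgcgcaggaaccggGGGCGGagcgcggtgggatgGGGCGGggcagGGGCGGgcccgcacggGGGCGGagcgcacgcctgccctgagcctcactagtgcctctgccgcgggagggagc
Hes1: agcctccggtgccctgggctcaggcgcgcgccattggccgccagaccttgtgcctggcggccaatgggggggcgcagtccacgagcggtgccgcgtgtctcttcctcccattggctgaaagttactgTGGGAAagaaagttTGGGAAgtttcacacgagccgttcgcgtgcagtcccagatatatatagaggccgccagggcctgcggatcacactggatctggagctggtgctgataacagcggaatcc
The Hes1 window held 2 matches to TGGGAA, 123 and 109 bases before the start, and 22.1% of 33469 rat promoter windows of this length held at least 1. The windows of Notch3 and Notch1 each held 4 GC boxes, a motif found in 30.5% of all windows, and 2 of those in Notch3 shared 1 base. The Jag1 window held none of the 3 motifs. AGGTCA occurred in 14% of all windows and in none of the 4 shown. Among the other members, Notch2 had 3 GC boxes, Dll1 had 2 matches to TGGGAA and Heyl had 1 to AGGTCA, while Rbpj, with 2 annotated starts, had 1 and 2 matches to TGGGAA. The GC content of the 4 windows, 61.6% to 67.6%, was above the median of all windows (51.2%). A match is a run of letters and not a measured binding site.

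Counts per library ranged from 508397 to 1030820, with a median of 22 counts over all genes and libraries. Values are given as CPM, counts scaled to the TMM-adjusted total of each library. Precision differed widely among the members: Notch2 had 2687 counts over the 15 libraries, Rbpj 1138, Jag1 910, Notch1 836, Notch3 572 and Hes1 238, while Dll1 had 43 and Heyl 21. T0 replicate 3, the smallest library, had the highest CPM of the T0 group for Notch1, Notch2, Notch3, Jag1 and Hes1. The retinoid-induced gene Cyp26b1, an RA-degrading enzyme, was 186.7 to 655 CPM in the cultures labelled +RA and 0 to 5.52 CPM in all others, and Dhrs3, a retinal reductase, rose by 5.22 on the log2 scale (adjusted p = 1.56e-36). Both genes fit the RA labels in every library. Of 10 myoblast and muscle markers, 9 had a row, whereas 5 of 6 cardiomyocyte markers and 5 of 6 endothelial markers had none.

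At T0 the levels per length, in CPM per kb of the deposited gene size, were highest for Jag1 (39.2 ± 5.43, SD, n = 3) and Notch2 (34.7 ± 7.83), whose libraries overlapped. Rbpj (24.4 ± 1.46) and Hes1 (22.1 ± 11.3) came next and also overlapped, followed by Notch3 (9.25 ± 3.66), Notch1 (5.99 ± 1.49) and Heyl (0.667 ± 0.325), while Dll1 had no count. Hes1 spanned 13.4 to 34.8 CPM per kb and also overlapped Jag1, Notch2 and Notch3, and Notch3 overlapped Notch1. In T14+RA the order was Notch2 (19.3 ± 0.416), Rbpj (18.9 ± 4.04), Hes1 (16.9 ± 4.57), Jag1 (5.79 ± 0.946), Notch1 (4.70 ± 1.04), Dll1 (1.63 ± 0.873), Notch3 (1.62 ± 0.447) and Heyl (0.199 ± 0.195). The first 3 overlapped with each other, as did Jag1 with Notch1 and Dll1 with Notch3. Jag1, Notch3 and Heyl stood lower in this order than at T0. For Notch3 this rests on places that overlapped, with Notch1 at T0 and with Dll1 in T14+RA.

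**Figure D1:**
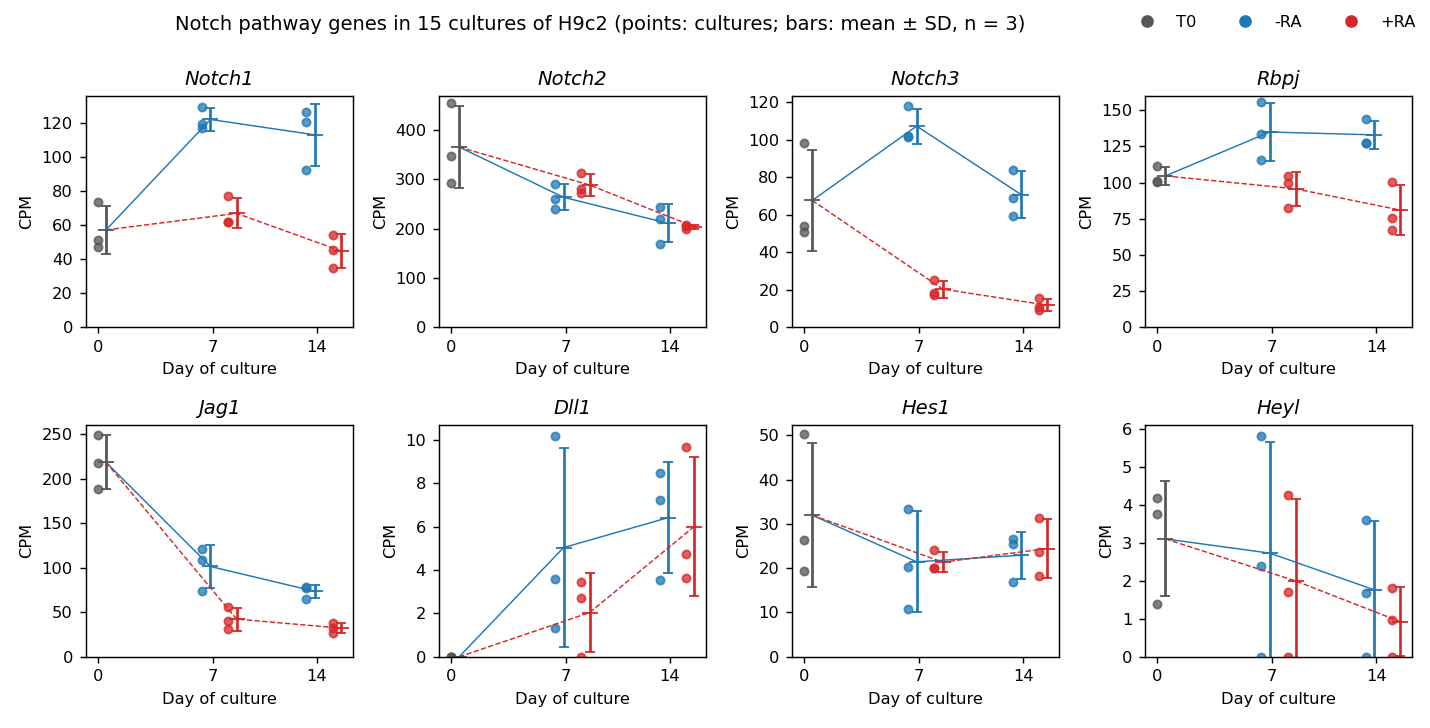
CPM (y axis, linear, from 0) of the 8 measured Notch pathway genes by day of culture (x axis), with 1 point per culture and the mean ± SD of 3 cultures beside it, grey for T0, blue for cultures without RA and red for cultures with RA, drawn side by side at days 7 and 14; lower error bars that would pass below 0 are cut at 0. Notch1, Notch3, Jag1 and Rbpj have every red point below every blue point of the same day, while those of Notch2 and Hes1 overlap.

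Notch3 showed the largest change with RA among the receptors. This receptor is best known from vascular smooth muscle and is also present in muscle precursors. It was at 53.8, 50.7 and 98.5 CPM in the 3 cultures of T0, 118, 102 and 102 CPM in T7-RA, and 84.1, 69.1 and 59.3 CPM in T14-RA. With RA it was at 18.5, 25.5 and 17.1 CPM at day 7 and at 15.4, 11 and 9.06 CPM at day 14, so that the cultures with RA lay below all 9 others. In the additive model with terms for T7, T14 and RA, fitted across all genes with edgeR's quasi-likelihood test (Benjamini-Hochberg adjusted p under 0.001), the RA term was −2.43 ± 0.184 (log2, SE, adjusted p = 1.35e-16), a fold of 0.186. It was lower with RA at both days, with a change of −2.37 ± 0.241 at day 7 (adjusted p = 4.93e-12) and −2.50 ± 0.285 at day 14 (adjusted p = 1.57e-10). The T7 term of Notch3 was 0.72 ± 0.197 (adjusted p = 0.0047) and did not pass the threshold, but it was 1.05 and passed without T0 replicate 3 (adjusted p = 0.00014). The T14 term was 0.11 ± 0.212 (adjusted p = 0.732), and its sign changed when a single library was left out, with a range of −0.03 to 0.45.

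Notch1, the receptor most often linked to the maintenance of muscle progenitors, moved in opposite directions with time and with RA. It was at 51.0, 46.9 and 73.4 CPM at T0, at 119, 117 and 129 CPM in T7-RA, and at 126, 92.1 and 120 CPM in T14-RA. With RA it was at 77, 61.8 and 61.7 CPM at day 7 and at 45.3, 34.6 and 54.4 CPM at day 14. Cultures without RA at both days lay above all T0 cultures, and those with RA overlapped T0. The T7 term was 1.20 ± 0.188 (adjusted p = 1.35e-06), the T14 term 0.92 ± 0.193 (adjusted p = 0.000107) and the RA term −1.09 ± 0.135 (adjusted p = 3.29e-09). With RA, Notch1 changed by −0.86 ± 0.176 at day 7 (adjusted p = 0.000294) and by −1.35 ± 0.193 at day 14 (adjusted p = 1.19e-07). The T14 term of Notch1 lost its call without T0 replicate 1, T0 replicate 2 or T14-RA replicate 1 (0.80 to 0.85, adjusted p = 0.00114 to 0.00255). The day 7 change lost its call without any 1 of the T7-RA replicates or T7+RA replicates 2 and 3 (−0.80 to −0.89, adjusted p = 0.00117 to 0.00716), and under limma-trend, DESeq2 and thinned counts (adjusted p = 0.0031, 0.00299 and 0.00525).

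Notch2 carried the most counts of the family, and RA did not move it past the threshold. It was at 348, 293 and 455 CPM at T0, 291, 259 and 240 CPM in T7-RA and 220, 168 and 244 CPM in T14-RA, against 272, 313 and 279 CPM in T7+RA and 199, 206 and 207 CPM in T14+RA. The groups with and without RA overlapped at both days, and the T14 cultures all lay below those of T0. The RA term was 0.04 ± 0.0969 with a 95% interval of −0.15 to 0.24 (adjusted p = 0.86), an interval that leaves out the RA terms of Notch1 and Notch3. Notch2 fell with time in the T14 term (−0.83 ± 0.126, adjusted p = 2.55e-07). Its T7 term was −0.42 ± 0.124 (adjusted p = 0.00958), and passed without T0 replicate 2 (−0.54, adjusted p = 0.000812).

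The make-up of the receptor transcripts was read from their shares per length. Expressed per kb, the 3 receptors summed to 49.9 ± 12.9 CPM per kb at T0. The sum was 52.5 ± 3.34 at day 7 and 41.5 ± 5.64 at day 14 without RA, and 37.2 ± 2.24 and 25.7 ± 0.947 on the same days with RA. Notch2 made up 69.8% ± 2.56 of this sum at T0. Without RA its share was 47.6% ± 2.02 at day 7 and 48.0% ± 4.11 at day 14, whereas with RA it was 73.6% ± 2.35 and 75.4% ± 3.26. The share of Notch3 was 18.2% ± 2.49 at T0, 27.9% ± 0.651 and 23.5% ± 4.47 in the 7 and 14 day cultures without RA, and 7.46% ± 1.17 and 6.32% ± 1.78 in those with RA. Notch1 had a share of 12.0% ± 0.356 at T0 and of 24.5% ± 2.41 and 28.5% ± 0.787 without RA, and was at 18.9% ± 2.96 and 18.2% ± 3.40 with it. In each culture without RA at day 7 or 14, Notch2 held a smaller share than in any T0 culture or any culture with RA. The shares follow from the gene sizes in the table and are given as a description without a test.

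**Figure D2:**
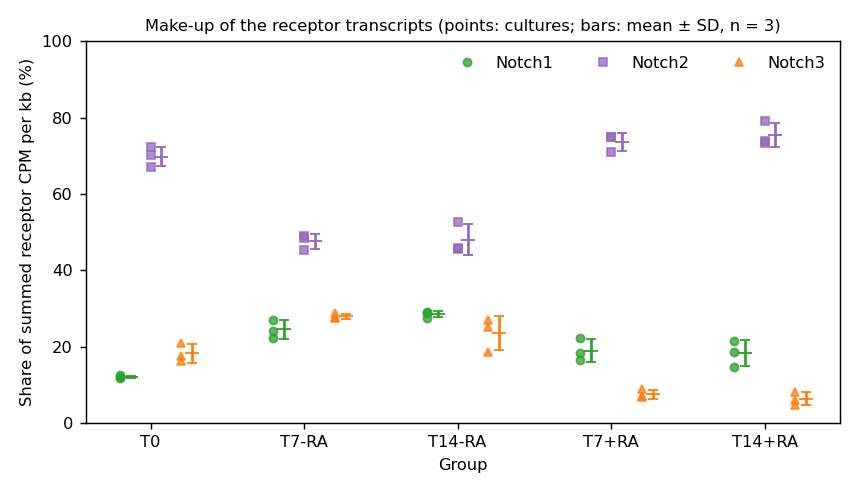
Share of each receptor in the summed CPM per kb of Notch1, Notch2 and Notch3 (y axis, percent, 0 to 100) in the 5 groups (x axis), with 1 point per culture and bars for the mean ± SD of 3 cultures. Notch2 is near 70% at T0 and above 70% with RA, and at 45.3% to 52.8% without RA at days 7 and 14, where Notch1 and Notch3 take more.

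Of the ligands, Jag1 fell both with time and with RA. Jagged-1 is a membrane-bound ligand of all the Notch receptors measured here and is also known as a gene that Notch signalling can induce. It was at 189, 218 and 249 CPM at T0, 122, 109 and 74.1 CPM in T7-RA, and 64.9, 77.9 and 77.9 CPM in T14-RA. With RA it was at 39.9, 56.4 and 30.9 CPM at day 7 and at 31.8, 37.7 and 27.2 CPM at day 14. No culture at T0 overlapped any later one, and none with RA overlapped any without. The T7 term was −1.09 ± 0.156 (adjusted p = 1.54e-07), the T14 term −1.56 ± 0.165 (adjusted p = 1.26e-11) and the RA term −1.21 ± 0.153 (adjusted p = 6.14e-09). With RA, Jag1 changed by −1.24 ± 0.204 at day 7 (adjusted p = 4.16e-06) and by −1.16 ± 0.231 at day 14 (adjusted p = 0.000123). The day 14 change of Jag1 lost its call without T14-RA replicate 2 or 3 or T14+RA replicate 1 or 3 (−1.08 to −1.15, adjusted p = 0.00106 to 0.00294). Between T0 and T14+RA the mean went from 218.7 ± 30.2 to 32.2 ± 5.27 CPM.

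Dll1, a Delta-type ligand that differentiating myoblasts can present to their neighbours, was near the lower limit of the data. It had 0 counts in all 3 T0 libraries. Without RA it had 3, 1 and 7 counts at day 7 and 6, 2 and 5 counts at day 14, and with RA 0, 2 and 2 counts at day 7 and 10, 3 and 2 counts at day 14. A count of 0 in every T0 library was seen for 1.31% of all genes, and a gene with so few counts enters the table only through the groups in which it was detected. Against a floor of 3 counts over the T0 group (1.64 CPM of the summed counts), Dll1 was at least 3.02-fold higher in T7-RA, at least 4.06-fold higher in T14-RA and at least 4.14-fold higher in T14+RA, bounds that leave out the counting error of those groups. T7-RA replicate 3 held 7 of the 11 counts of its group and T14+RA replicate 1 held 10 of the 15. The bounds of these 2 groups therefore lean on 1 library each and would be lower without it. No bound is given for T7+RA, whose counts were close to the floor. The adjusted p of its time terms, 0.0255 for T7 and 0.00153 for T14, did not pass the threshold. Its RA term was −0.43 with a 95% interval of −1.47 to 0.61 (adjusted p = 0.691), an interval that includes both 0 and the RA term of Jag1.

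Rbpj, the DNA-binding protein through which all Notch receptors act, was lower with RA. It was at 112, 101 and 101 CPM at T0, 134, 116 and 155 CPM in T7-RA and 144, 128 and 127 CPM in T14-RA, against 82.7, 105 and 99.4 CPM in T7+RA and 100, 75.4 and 67.1 CPM in T14+RA. The cultures with RA lay below those without at each day. The RA term was −0.58 ± 0.115 (adjusted p = 9.95e-05), or 0.668 times the level without RA, a smaller change in size than those of Notch3, Jag1 and Notch1. The changes at day 7 (−0.49 ± 0.158, adjusted p = 0.0398) and at day 14 (−0.67 ± 0.162, adjusted p = 0.00189) each missed the threshold. The RA term of Rbpj lost its call without T14-RA replicate 1 (−0.53, adjusted p = 0.00129), and the day 14 change passed without T0 replicate 2 (−0.67, adjusted p = 0.000941) or T14+RA replicate 1 (−0.90, adjusted p = 0.000711). Neither time term passed, with 0.39 ± 0.155 for T7 (adjusted p = 0.058) and 0.30 ± 0.157 for T14 (adjusted p = 0.132).

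Among the targets, Hes1 passed in no term. It is a basic helix-loop-helix repressor that is induced by Notch and by other signals. It was at 19.3, 26.3 and 50.3 CPM at T0, 10.7, 20.2 and 33.4 CPM in T7-RA, 16.8, 26.6 and 25.4 CPM in T14-RA, 19.96, 20.1 and 23.996 CPM in T7+RA and 18.3, 31.4 and 23.6 CPM in T14+RA. All 5 groups overlapped. The RA term was 0.05 ± 0.250 with a 95% interval of −0.45 to 0.56 (adjusted p = 0.939), which does not reach the RA terms of Notch3 (−2.43), Jag1 (−1.21), Notch1 (−1.09) or Rbpj (−0.58). The interval of Rbpj itself, −0.81 to −0.35, overlapped that of Hes1, and differences between genes were not tested. The time terms, −0.56 ± 0.325 for T7 (adjusted p = 0.224) and −0.43 ± 0.327 for T14 (adjusted p = 0.327), did not pass either. Hes1 had 9 to 24 counts per library, and leaving out 1 library at a time moved its T7 term between −0.86 and −0.11, so a change of this size was not told apart from the spread between cultures and the counting error. Heyl, a Hey-family repressor, had 0 to 4 counts per library and 2 to 6 per group, so no fold is given.

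Counted over the 8 measured members, 4 passed in the RA term, all lower, where 6.39% of all genes passed (3.07% lower). The members and lists were chosen with earlier results of these data known, so such counts are a description and not a test. In the T7 term 2 passed (Notch1 higher, Jag1 lower) against 8.73% of all genes, and in the T14 term 3 passed (Notch1 higher, Notch2 and Jag1 lower) against 17.3%. Of the 7 members with counts at T0, which leaves out Dll1, 5 did not overlap T0 in T7-RA (Notch1, Notch3 and Rbpj higher, Notch2 and Jag1 lower), where 33.3% of all genes did not, and 4 did not in T14-RA (the same without Notch3), where 40.6% of all genes did not. The median change over the 6 members with a mean count of at least 10 was −0.83 for RA, −0.01 for T7 and −0.16 for T14, beside −0.01, 0.02 and 0.05 over all genes. With Dll1 and Heyl, whose fitted values rest on few or no counts, the medians were −0.61, 0.18 and −0.16. The summed CPM of the members was 739 to 1031 at T0, 724 to 800.4 in T7-RA, 565 to 667 in T14-RA, 515 to 584 in T7+RA and 393 to 421 in T14+RA.

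**Figure D3:**
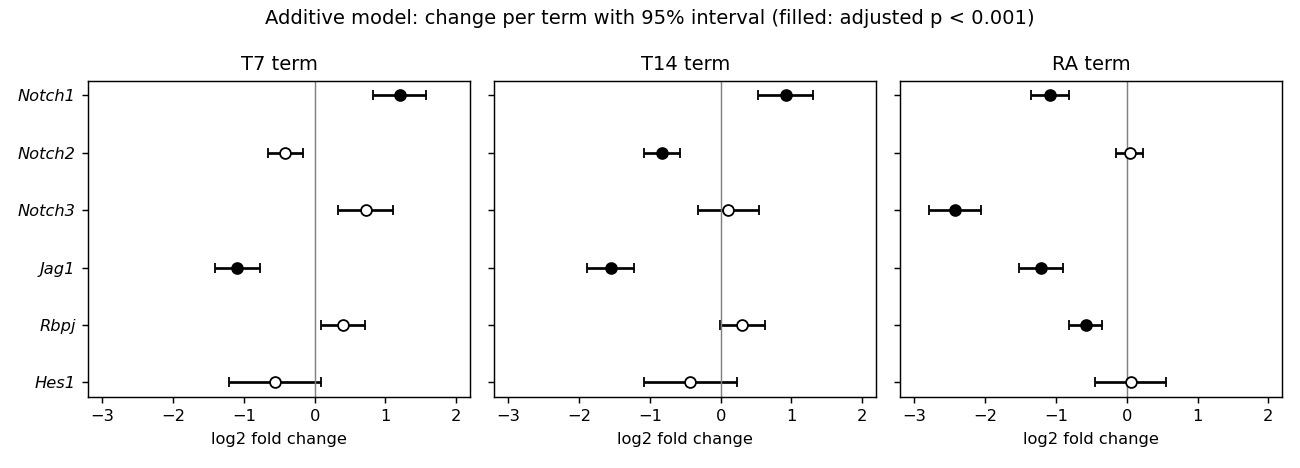
Change of 6 Notch pathway genes (y axis) on the log2 scale (x axis) in the T7, T14 and RA terms of the additive model, with 95% intervals and filled symbols for an adjusted p under 0.001. Notch3, Jag1, Notch1 and Rbpj lie below 0 in the RA term, Notch2 and Hes1 sit at 0.04 and 0.05, and Notch1 alone has filled symbols to the right of 0, in both time terms.

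The additive model gives a single RA effect, and the model with 5 group means gave it for each day. At day 7, 3 members passed, all lower (Notch3, Jag1 and Notch1), where 3.17% of all genes passed (1.3% lower). Without the call of Notch1, which limma-trend, DESeq2 and thinned counts did not make, the day 7 count was 2. At day 14 Notch3, Jag1 and Notch1 passed, all lower, where 4.81% did (2.35% lower). Rbpj was among those whose cultures with and without RA did not overlap, together with these 3, at both days. That was the case for 24.4% of all genes at day 7 (12.6% with RA lower) and for 27.2% at day 14 (13.9% with RA lower). No member passed the test of the difference between days at an adjusted p of 0.05, where 0.743% of all genes passed. With edgeR none had an unadjusted p under 0.05, where 8.35% of all genes did. limma-voom, limma-trend and DESeq2 also called 0 members at the adjusted threshold. The difference was −0.49 for Notch1 with a 95% interval of −1.02 to 0.04 (adjusted p = 0.649), −0.13 for Notch3 (−0.93 to 0.66) and 0.08 for Jag1 (−0.56 to 0.72). These intervals do not show that the effect of RA was equal on both days.

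**Figure D4:**
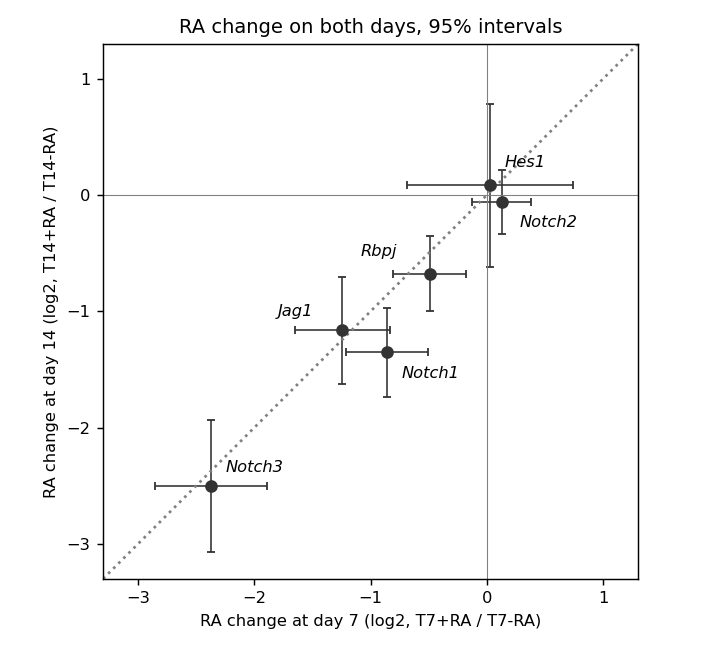
RA change at day 14 (y axis, log2 of T14+RA over T14-RA) against RA change at day 7 (x axis, log2 of T7+RA over T7-RA) for 6 Notch pathway genes, with 95% intervals and a dotted line of equal change. Notch3 lies at −2.37 and −2.50, Jag1 and Notch1 lie between, Rbpj is closer to 0, and the intervals of Notch2 and Hes1 cross 0 on both axes.

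During the second week no member passed the test. T14-RA against T7-RA called 0 of the 8 with edgeR, where 2.95% of all genes passed, and T14+RA against T7+RA called 0, where 4.67% passed. At an unadjusted p under 0.05 there were 3 members in the first, where 18.4% of all genes had such a p, and 2 in the second, where 22.6% did. limma-voom, limma-trend and DESeq2 also called 0 in both. The values were −0.58 ± 0.190 for Notch3 (adjusted p = 0.0441), −0.49 ± 0.186 for Jag1 (adjusted p = 0.0976) and −0.32 ± 0.132 for Notch2 (adjusted p = 0.144) without RA. With RA they were −0.51 ± 0.131 for Notch2 (adjusted p = 0.00476) and −0.59 ± 0.211 for Notch1 (adjusted p = 0.0589). The week comparisons share their cultures with the RA comparisons, so the values are not independent of one another.

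The wider pathway was described with a list of 63 other genes, of which 50 had a row. In the RA term 1 of the 50 passed, lower, against 6.39% of all genes, and the median of the list was −0.003 beside −0.01 over all genes. Ncstn, which was higher with RA, was called as well under DESeq2, filterByExpr, a mean count of at least 10 and the replicate block, and without T0 replicate 2, T0 replicate 3 or T7-RA replicate 1 (adjusted p = 0.000481 to 0.000902). The 1 gene called with edgeR over all genes and libraries was Neurl1, a ubiquitin ligase that acts on Notch ligands. It was at 37.2, 41.3 and 21.0 CPM at T0, 66.8, 75.3 and 69.7 CPM in T7-RA and 116, 133 and 152 CPM in T14-RA, against 34.2, 41.6 and 36.0 CPM in T7+RA and 58.8, 51.9 and 47.1 CPM in T14+RA. Cultures with and without RA did not overlap at either day, as for 24.4% and 27.2% of all genes. Its RA term was −1.14 ± 0.142 (adjusted p = 3.1e-09). Taken by day, the RA change was −0.91 ± 0.215 at day 7 (adjusted p = 0.00206), which did not pass, and −1.31 ± 0.182 at day 14 (adjusted p = 6.53e-08), and the difference between days was −0.40 (adjusted p = 0.787). Its T7 term was 1.14 ± 0.220 (adjusted p = 6.58e-05) and its T14 term was 1.90 ± 0.207 (adjusted p = 3.06e-11). The T7 term of Neurl1 lost its call without T0 replicate 3 (0.94, adjusted p = 0.00211). Neurl1 thus rose with time and fell with RA, the pair of directions that Notch1 also had.

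Of the 9 receptor-processing genes, which include the secretases that cut the receptor, none passed in the RA term of the edgeR test over all genes and libraries. Ncstn, the gamma-secretase subunit nicastrin, came closest at 0.35 ± 0.0817 (adjusted p = 0.00125), and it is the gene that passed under the 7 alternatives named above. In the T14 term 9 of the 50 genes passed, 3 higher and 6 lower, against 17.3% of all genes, and in the T7 term 5 passed, 1 higher and 4 lower, against 8.73%. The median of the list was −0.17 for T14 and −0.11 for T7, beside 0.05 and 0.02 over all genes. By role, the T14 calls were 1 of 9 receptor-processing genes, 3 of 5 sugar transferases, 1 of 4 ligand ubiquitin ligases, 2 of 18 nuclear complex genes and 2 of 10 regulators. Lfng, the fringe glycosyltransferase that alters which ligand a receptor prefers, went from 175, 141 and 151 CPM at T0 to 50.4, 42.5 and 49.1 CPM in T14-RA and 35.7, 36.1 and 43.5 CPM in T14+RA, and its T14 term was −1.68 ± 0.176 (adjusted p = 8.21e-12). Pofut1, which adds the O-fucose that fringe extends, fell by 1.17 ± 0.188 in the T14 term (adjusted p = 8.21e-07). Furin, the protease that makes the mature receptor, fell by 0.82 ± 0.127 (adjusted p = 4.11e-07). Eogt, which adds O-GlcNAc to the receptor's EGF repeats, fell by 0.83 ± 0.200 (adjusted p = 0.000645).

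The same 3 genes Lfng (−0.91), Pofut1 (−0.93) and Furin (−0.68) also passed in the T7 term, and each lost that call without T0 replicate 1 (−0.80, −0.89 and −0.59, adjusted p = 0.00139, 0.00147 and 0.00189). Their RA terms were −0.39 (adjusted p = 0.0652), 0.05 (0.907) and −0.001 (0.998), and none passed. Outside the secretory route, Numbl, a Numb-family inhibitor of Notch (−0.88 ± 0.167, adjusted p = 1.89e-05), and the corepressor subunit Hdac1 (−0.54 ± 0.134, adjusted p = 0.000999) were lower in the T14 term, and Fhl1, a LIM-domain protein abundant in muscle, was lower in the T7 term (−0.54 ± 0.0907, adjusted p = 5.23e-06), with a T14 term of −0.16 (adjusted p = 0.164). From T7-RA to T14-RA, 2 of the 50 genes passed, both higher, against 2.95% of all genes, namely Neurl1 (0.91 ± 0.173, adjusted p = 9.2e-05) and Fhl1 (0.40 ± 0.0882, adjusted p = 0.000984). Higher in the T14 term, besides Neurl1, were Tle4, a Groucho-type corepressor (0.85 ± 0.207, adjusted p = 0.000768), and Dtx3, a deltex-family ubiquitin ligase (0.84 ± 0.173, adjusted p = 7.85e-05). The calls of Hdac1, Tle4 and Eogt were close to the threshold and were lost in 14, 10 and 8 of the 15 fits that left out 1 library, with adjusted p up to 0.00761, 0.00575 and 0.0317. Other methods lost them too, Hdac1 under limma-voom, limma-trend, DESeq2, RLE size factors and library size only, Tle4 under limma-voom and DESeq2, and Eogt under limma-trend, DESeq2 and library size only. Those of Numbl (−0.74, adjusted p = 0.00226) and Dtx3 (0.78, adjusted p = 0.00214) were lost without T0 replicate 1.

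**Figure D5:**
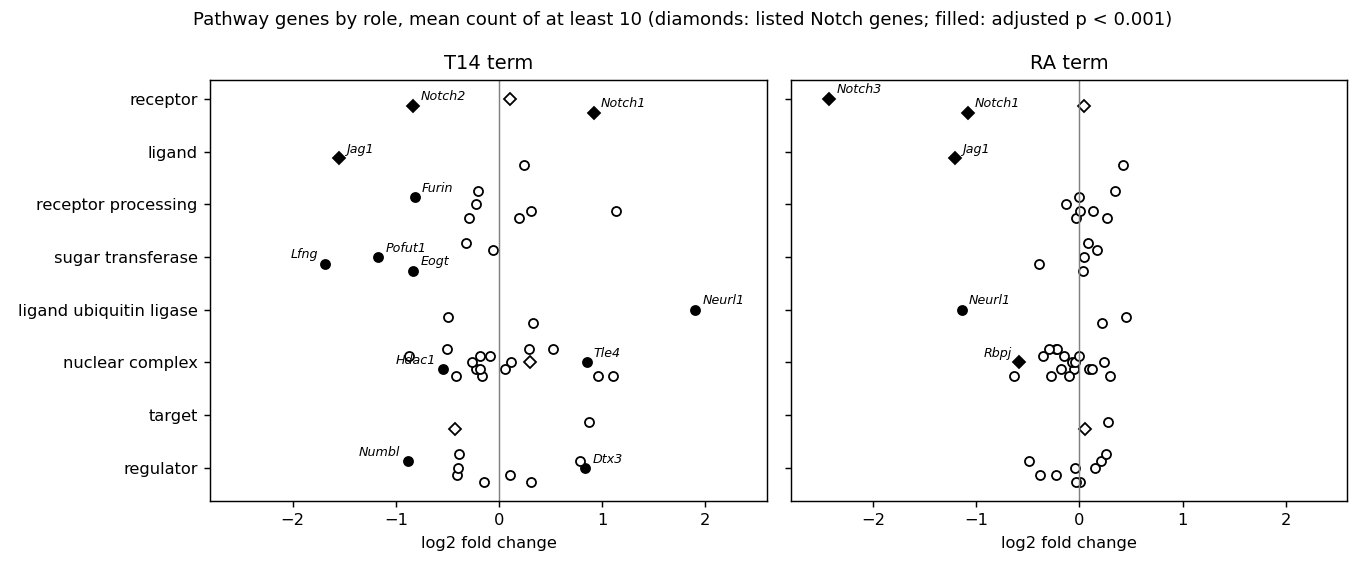
Change on the log2 scale (x axis) in the T14 and RA terms for 6 listed Notch genes (diamonds) and 43 other pathway genes (circles) with a mean count of at least 10, grouped by role (y axis), with filled symbols and names for an adjusted p under 0.001. In the RA term the filled symbols are Notch1, Notch3, Jag1, Rbpj and Neurl1, all lower, while the other roles lie around 0.

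Markers of other cell states were read in the same cultures. The summed level of the 9 measured myoblast and muscle markers was 908 to 925 CPM at T0, 2701 to 2935 in T7-RA and 7158 to 7518 in T14-RA, but 1859 to 1990 in T7+RA and 3347 to 3778 in T14+RA. In the RA term 3 of the 9 passed, all lower, against 6.39% of all genes (3.07% lower), namely Actc1 (−2.73), Chrna1 (−2.30) and Myh3 (−1.33), which encode cardiac actin, an acetylcholine receptor subunit and embryonic myosin. Myh3 made up most of the sum, at 5056 CPM on average in T14-RA and 1874 CPM in T14+RA. Without Myh3, left out after its level was seen, the sums were 2221 to 2396 CPM in T14-RA and 1600 to 1829 in T14+RA, and 1441 to 1455 and 1313 to 1363 CPM on day 7. Ckm (RA term 0.001, adjusted p = 0.999) and Des (0.01, adjusted p = 0.988) did not pass for RA. Myod1, a myogenic transcription factor, had an RA term of 0.33 (adjusted p = 0.277) that averaged unlike days. Its RA change was 0.77 ± 0.171 at day 7 (adjusted p = 0.00106) and −0.28 ± 0.203 at day 14 (adjusted p = 0.489), and the difference between days passed at −1.04 ± 0.266 (adjusted p = 0.0369), the 1 muscle marker of 9 to do so, where 0.743% of all genes did. The 5 cycling markers summed to 1184 to 1478 CPM at T0. At day 7 they summed to 891 to 964 CPM without RA and 851 to 893 with it, and at day 14 to 434 to 480 and 288 to 450 CPM, which overlapped, with 4 of 5 lower in the T14 term, against 17.3% of all genes called, and 0 of 5 called for RA. Of 7 fibroblast and smooth muscle markers 6 were measured. All 6 passed in the T14 term, 1 higher and 5 lower, against the same 17.3%, and 1 passed for RA against 6.39% (Dcn, a matrix proteoglycan, higher by 1.08). Taken by day, 2 of the 6 passed for RA at day 14, both higher, against 4.81% of all genes, and 0 at day 7, against 3.17%. The part of these markers in the changes of Notch1, Notch3, Jag1 and Rbpj was not tested. The endothelial marker measured, Tek, was at 0 to 6.29 CPM in every library and the cardiomyocyte marker measured, Gata4, at 6.90 to 21.6 CPM.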

How the data were processed

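RNA-seq of 15 H9c2 cultures was analysed, grouped by the titles of the samples. The authors mapped the reads with HISAT2 to the rat genome (Rnor 6.0 per the submitters' processing notes) and counted them per gene with featureCounts. They deposited raw counts of the genes whose sum over the libraries exceeded 20 (smallest sum 21), not normalized. Tool versions, annotation release and strand setting of the counting are not given in the sources used here. The libraries were made with a stranded kit, and whether reads of overlapping genes on opposite strands were counted apart is not known. Identifiers and gene sizes are those deposited, and the size, whose definition is not given, was read as a length in bases.

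All 11574 genes were fitted with edgeR 4.0.16 (R 4.3.3, TMM, robust quasi-likelihood F test). An additive model of T7, T14 and RA, the formula of the study, was called at an adjusted p under 0.001, and a model with 5 group means gave 5 further contrasts at 0.001, or 0.05 for the difference between days. P-values were adjusted by Benjamini-Hochberg within each contrast. Intervals are 95% and, like the floor of 3 counts, come from reads without molecular identifiers. The study's methods call the 3 libraries per group biological replicates and do not say how the cultures were separated, so p-values measure the spread between these cultures. Alternatives were a threshold of 0.05, limma-voom and limma-trend (limma 3.58.1), DESeq2 1.42.0, RLE size factors, library size only, filterByExpr, a mean count of at least 10, a block for the replicate number, thinning of all libraries to the size of the smallest, and fits without each single library. The scripts were tested on simulated data. Promoters come from RefSeq on GRCr8, matched by symbol for 8 of 8 measured members. The genes named were the members, genes of the wider list past 0.001 in the T7, T14 or RA term, the markers, Cyp26b1 and Dhrs3, and Ncstn, which was chosen after its values were seen. The members and lists were chosen with earlier results of these data known. For 12 of 15 samples the cell line field gives a name other than H9c2, although all 15 titles say H9c2.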

Additional observations from a re-analysis of the deposited data

How the results depend on the processing

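Counts were few for Dll1, Heyl and Hes1, which had 43, 21 and 238 over the 15 libraries. The RA terms of Notch1, Notch3, Jag1 and Rbpj stayed lower and called under every alternative that kept the threshold, except without T14-RA replicate 1 for Rbpj. For each change in this paragraph the cause was not tested. At an adjusted p of 0.05, the T7 term called 5 members, and 14 genes of the wider list were called for T7, 17 for T14 and 4 for RA, where 23.1%, 35.4% and 14.7% of all genes were, while T14-RA against T7-RA and T14+RA against T7+RA each called 1 member (Notch3 and Notch2), where 7.79% and 11.4% of all genes were. At 0.001, DESeq2 called 6 genes of the wider list for T14 (14.5% of all genes), and for RA DESeq2 (5.63%), filterByExpr (8.04%), a mean count of at least 10 (8.29%) and the replicate block (6.89%) each called 2, Neurl1 lower and Ncstn higher. The day 7 change of Notch1 lost its call under limma-trend (−0.85, adjusted p = 0.0031), DESeq2 (−0.86, adjusted p = 0.00299) and thinned counts (−0.78, adjusted p = 0.00525), as did the T7 term of Pofut1 with thinned counts (−0.83, adjusted p = 0.00124). The T7 term of Notch3 passed with library size only (0.83, adjusted p = 0.000969), which moved the median of all genes to 0.13 for T7 and 0.15 for T14 and the calls over all genes from 496 higher and 514 lower to 648 and 358 for T7, and from 980 and 1024 to 1221 and 844 for T14. The T14 term of Dll1 passed under limma-trend (1.76, adjusted p = 0.000927). Deviations from the group mean correlated at −0.035 to 0.0991 in 30 same-numbered pairs of cultures (mean 0.018). In 60 other pairs the range was −0.0889 to 0.0534 (mean −0.009). These values cannot decide whether the numbers pair the samples, because a weak shared deviation would also give them. The replicate block changed no call among the members, while the genes called in the RA term went from 740 to 797.

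Signs changed only for values that were not called. The RA change of Dll1 at day 14 was −0.0203 under limma-voom, −0.0822 under limma-trend, −0.0461 under DESeq2, −0.00426 with library size only and −0.607 with thinned counts. For Rbpj, T14-RA against T7-RA was 0.00176 under limma-voom, 0.00172 under DESeq2, 0.00607 with RLE size factors, 0.0104 with a mean count of at least 10 and 0.00761 with thinned counts. For Hes1, the difference between days was −0.108 under limma-voom and −0.0267 under limma-trend, the day 7 change was −0.00509 with library size only and −0.00232 with thinned counts, and T14-RA against T7-RA was −0.117 with thinned counts.

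Leaving out each library in turn gave 2 to 3 called members for T7, 2 to 3 for T14, 3 to 4 for RA, 2 to 3 for RA at day 7, 2 to 4 for RA at day 14 and 0 to 0 for the other contrasts, where the share of all genes called was 5.66% to 9.17%, 13.4% to 17.5%, 5.4% to 7.24%, 2.36% to 3.73%, 3.25% to 5.68% and, for the others, 0.441% to 5.56%. In the wider list it gave 2 to 6 genes for T7 (2 without T0 replicate 1, where 5.66% of all genes were called), 6 to 8 for T14 and 1 to 2 for RA (2 without T0 replicate 2, T0 replicate 3 or T7-RA replicate 1, where 7.24%, 6.85% and 5.73% were). Ranges that crossed 0 were −0.0349 to 0.449 for Notch3 and −0.726 to 0.021 for Hes1 in the T14 term, and −0.000111 to 0.105 for Notch2 and −0.101 to 0.249 for Hes1 in the RA term. At day 7 the range of Hes1 was −0.32 to 0.49, and at day 14 it was −0.14 to 0.31, beside −0.184 to 0.0508 for Notch2 and −0.61 to 0.22 for Dll1. The difference between days ranged from −0.438 to 0.0719 for Notch3, −0.0837 to 0.350 for Jag1 and −0.40 to 0.41 for Hes1. T14-RA against T7-RA ranged from −0.192 to 0.0185 for Notch1, −0.0232 to 1.31 for Dll1, −0.251 to 0.543 for Hes1 and −0.106 to 0.0951 for Rbpj, and T14+RA against T7+RA from −0.0668 to 0.382 for Hes1.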
